A study of Canis lupus familiaris with 27 samples.

Results

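The Eph receptors are receptor tyrosine kinases of the cell surface, and the ephrins are the ligands that bind them. Measured here were 8 Eph receptors (EPHA1, EPHA2, EPHA4, EPHB1, EPHB2, EPHB3, EPHB4 and EPHB6) and the B ephrins EFNB1 and EFNB2 in canine mammary carcinomas. The 10 genes, of 15115 with a symbol of their own on the array, carry 18 of the 42860 probe sets. They are a part of the family, taken by symbol and chosen with earlier results of these data known. The value of a gene is that of its brightest probe set, judged by the mean of the 27 tumors. One Affymetrix Canine Genome 2.0 array was hybridized for each of 27 simple carcinomas from different dogs, 13 with lymph node metastases (metastatic tumors) and 14 without (non-metastatic tumors), to compare primary tumors that had and had not spread to the lymph nodes. No dog had received progestins, and every tumor was snap frozen, grew invasively and was macrodissected to sections made up mostly of carcinoma cells. All 27 tumors are labelled estrogen receptor negative, and HER-2 is labelled positive in 11 of the 13 metastatic and 14 of the 14 non-metastatic tumors.

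Tumors are named below by group and by their order within the group. The metastatic tumors came from dogs aged 12.4 ± 2.66 years (SD, n = 13), 6 of them of grade II and 7 of grade III. The non-metastatic tumors came from dogs aged 11.4 ± 1.65 years (SD, n = 14), with 5 labelled grade II and 9 grade III. The grade of non-metastatic tumor 1, labelled II, is uncertain. Large tumors were preferred when the non-metastatic group was selected. They measured 5.21 ± 3.53 cm (SD, n = 14), and the metastatic tumors 2.42 ± 1.32 cm (SD, n = 13), a difference with a two-sided p of 0.00516 in a permutation test. Within the non-metastatic group, tumor 12 came from the dog that later developed lung metastases.

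Ephrins stay attached to the cell that makes them, so an Eph receptor is engaged where cells touch. Binding sends a forward signal into the receptor's cell through its kinase and adaptor proteins, and a reverse signal into the cell with the ephrin, and both act on adhesion, the cytoskeleton and the sorting of cells into compartments. A receptors bind mainly the lipid-anchored A ephrins and B receptors mainly the transmembrane B ephrins, with EPHA4 able to bind both. In the mammary gland EPHB4 and EFNB2 are known for their part in the growth of the epithelium, and the same pair separates veins from arteries in blood vessels.

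The deposited values are log2 signals, so a difference of 1 is a doubling. Their median over all probe sets and tumors was 3.66, and signals of different probe sets cannot be compared as amounts of RNA. The upper quartile of an array was 7.93 ± 0.04 in metastatic and 7.75 ± 0.15 in non-metastatic tumors (SD, n = 13 and 14; permutation test, p = 6.0e-05). A GAPDH control whose 3′ minus 5′ signal reflects RNA quality read 1.84 ± 0.32 and 1.32 ± 0.42 (SD, n = 13 and 14; permutation test, p = 0.00206), while a further GAPDH control read 0.07 ± 0.12 and 0.07 ± 0.16. The epithelial genes EPCAM and KRT8 reached at least 11.6 and 8.99 in every tumor. Other luminal genes fell lower in some tumors, with lowest readings of 5.69 for KRT18, 3.81 for CDH1, 3.33 for GATA3 and 2.43 for FOXA1. The mean of the 9 luminal genes measured ran from 7.38 to 9.24 in metastatic and from 5.16 to 10.6 in non-metastatic tumors. The names of 11 of the 13 metastatic and 0 of the 14 non-metastatic tumors end in the letter T, whose meaning the labels do not give. The arrays of non-metastatic tumors 3 and 5 correlated at r = 0.993 and those of metastatic tumor 2 and non-metastatic tumor 4 at r = 0.991, against a median of 0.949 over 351 pairs.

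Metastatic and non-metastatic tumors differed in 4 of the 10 genes, and in opposite directions. EPHB1 and EPHB3 were lower in metastatic tumors, and EPHB4 and EPHA2 were higher, by limma with Benjamini-Hochberg adjustment over all 15115 genes at an adjusted p under 0.05. Of all genes, 17.8% passed the same test, 10.6% higher and 7.27% lower in metastatic tumors, which is the background for the 4 calls. Because the 10 genes were chosen with earlier results known, their share called is no test of the family. Of 10 other Eph receptors and ephrins measured, 0 were higher and 1 was lower. The median difference of the 10 genes was 0.12, against -0.0019 over all genes. Among the 3 A receptors 1 rose, among the 5 B receptors 1 rose and 2 fell, and neither of the 2 ephrins passed.

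**Figure D1:**
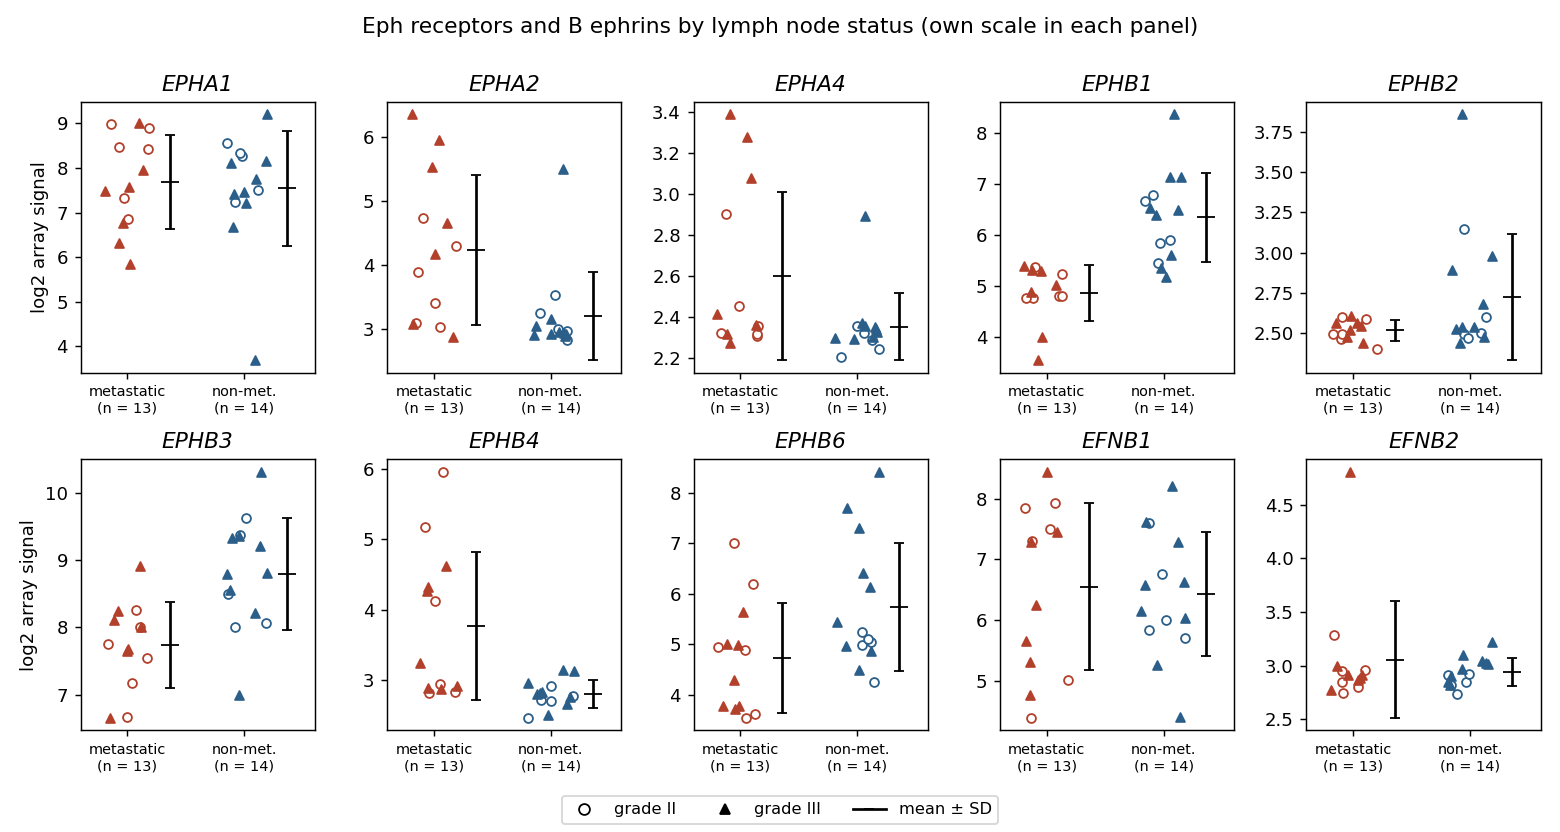
Log2 array signal of each of the 10 genes in every tumor, metastatic in red and non-metastatic in blue, with circles for grade II, triangles for grade III and the mean ± SD beside each group; each panel has its own scale. EPHB1 lies at 3.54 to 5.39 in metastatic and 5.18 to 8.37 in non-metastatic tumors, whereas EPHB4 exceeds a level of 4 in 6 metastatic and 0 non-metastatic tumors.

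Among the A receptors, EPHA2, a receptor of epithelial and endothelial cells that is often abundant in carcinomas, ran from 2.88 through a median of 4.17 to 6.36 in metastatic tumors. In non-metastatic tumors it ran from 2.83 through 2.96 to 5.50. The groups overlapped, since non-metastatic tumor 4 alone among its group exceeded a level of 4, as did 7 of 13 metastatic tumors, and 3 metastatic tumors lay above all non-metastatic ones. Means were 4.24 ± 1.17 (SD, n = 13) and 3.20 ± 0.69 (SD, n = 14). The EPHA2 signal was higher in metastatic tumors (by 1.04 on the log2 scale with a standard error of 0.36, limma adjusted p = 0.0453), and 12 of the 13 exceeded the non-metastatic median. This call lay close to the threshold and depended on single tumors. It held when any 1 of metastatic tumors 4, 8, 10, 12 and 13 or non-metastatic tumors 4 and 6 was left out (adjusted p from 0.0107 to 0.0468), and was lost without any 1 of the other 20 tumors, at differences of 0.86 to 1.07 and adjusted p from 0.0537 to 0.0753.

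EPHA1, the founding member of the family and a receptor of epithelia, lay between 5.84 and 9.00 with a median of 7.57 in metastatic tumors. In non-metastatic tumors it lay between 3.68 and 9.22 with a median of 7.63, and the lowest of all 27 tumors was non-metastatic tumor 12. The ranges overlapped almost wholly, and the difference of 0.14 had a 95% interval from -0.77 to 1.06 (adjusted p = 0.842 from limma). EPHA4, which binds both classes of ephrin, ran from 2.27 through 2.36 to 3.39 in metastatic tumors and from 2.20 through 2.32 to 2.89 in non-metastatic tumors. Metastatic tumors 4, 7 and 11 read above every non-metastatic tumor, as did metastatic tumor 1 by a narrow margin, and the others lay among them. The difference of 0.24 (95% interval from 0.0058 to 0.48) did not pass the test (adjusted p = 0.136).

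EPHB1, a B receptor that couples to adaptor proteins and to integrin-mediated attachment, separated the groups best of the 10 genes by its adjusted p. It ran from 3.54 through a median of 4.89 to 5.39 in metastatic tumors and from 5.18 through 6.43 to 8.37 in non-metastatic tumors. Only non-metastatic tumors 4 and 12 fell within the metastatic range, and 8 metastatic tumors lay below every non-metastatic tumor. With means of 4.86 ± 0.55 (SD, n = 13) and 6.34 ± 0.87 (SD, n = 14), EPHB1 was 2.80-fold lower in metastatic tumors (log2 difference -1.49, standard error 0.28, adjusted p = 0.00119 from limma). All 13 metastatic tumors were below the non-metastatic median.

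EPHB1 was also the 1 gene of the 10 that met stricter thresholds, taken from the study's methods, of a fold over 1.7 and an adjusted p under 0.001 over all probe sets (adjusted p = 0.000985 from limma). Of all probe sets, 0.59% met them in the lower and 0.597% in the higher direction. Its other probe sets, dim in both groups with means of 2.69 and 2.61, differed by -0.46 (adjusted p = 0.0914 over all probe sets) and -0.05, and neither passed at 0.05, as 21.2% of all probe sets did. The direction was shared by the 3 probe sets, and the call rests on the brightest.

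EPHB3, a B receptor known from the intestine as a gene that keeps epithelial compartments apart, ran from 6.65 through 7.75 to 8.92 in metastatic tumors. In non-metastatic tumors it ran from 7.00 through 8.80 to 10.32. The groups overlapped over most of the metastatic range, with 6 non-metastatic tumors above every metastatic tumor and 2 metastatic tumors below every non-metastatic one. Means were 7.74 ± 0.64 (SD, n = 13) and 8.80 ± 0.83 (SD, n = 14), a 2.08-fold lower level in metastatic tumors (log2 difference -1.05, standard error 0.28, adjusted p = 0.0121 from limma). The lowest non-metastatic value of both EPHB1 and EPHB3 was that of non-metastatic tumor 12, and the highest value of both was that of non-metastatic tumor 2. Without tumor 12 the differences were -1.58 for EPHB1 (adjusted p = 0.000491) and -1.19 for EPHB3 (adjusted p = 0.00253).

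EPHB4, the B receptor of veins and of mammary epithelium whose main ligand is EFNB2, was dim and narrow in non-metastatic tumors, from 2.46 through 2.79 to 3.15. In metastatic tumors it ran from 2.81 through 3.25 to 5.96. It was raised unevenly, with metastatic tumors 4, 5, 6, 7, 8 and 11 above 4, metastatic tumor 2 just above the non-metastatic range and the other 6 within it. Means were 3.77 ± 1.05 (SD, n = 13) and 2.80 ± 0.20 (SD, n = 14), a log2 difference in signal of 0.97 (standard error 0.28, adjusted p = 0.0195 from limma), and 13 of 13 metastatic tumors exceeded the non-metastatic median. Of the 13 metastatic tumors, 3 had both EPHB4 and EPHA2 above 4 and 3 had neither.

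EPHB6, a receptor whose kinase domain is inactive, ran from 3.54 through 4.89 to 7.02 in metastatic tumors and from 4.25 through 5.17 to 8.42 in non-metastatic tumors. The groups overlapped widely, with 10 of 13 metastatic tumors below the non-metastatic median. The difference of -1.02 (95% interval from -1.94 to -0.09) did not pass the test (adjusted p = 0.110), and of its other 3 probe sets 2 differed in the same direction and 1 in the opposite. EPHB2, a close relative of EPHB3, lay between 2.40 and 2.61 in metastatic tumors, a narrow range with a median of 2.52. In non-metastatic tumors its median was 2.54 and its range 2.44 to 3.86, so that the groups shared their middle and differed in the upper end, where 5 non-metastatic tumors exceeded every metastatic one. The difference was -0.20 (95% interval from -0.43 to 0.02, adjusted p = 0.182).

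Of the ligands, EFNB1, whose reverse signal acts through a short intracellular tail, ran from 4.38 through 7.28 to 8.45 in metastatic tumors. In non-metastatic tumors it ran from 4.39 through 6.36 to 8.21, almost the same range. The difference was 0.12 (95% interval from -0.82 to 1.05, adjusted p = 0.874). EFNB2, the ligand of EPHB4 and a mark of arteries, stayed between 2.74 and 3.29 in all tumors but metastatic tumor 7, which read 4.81. The medians were 2.91 and 2.92, and the difference was 0.12 (95% interval from -0.19 to 0.42, adjusted p = 0.595). No gene of the 10 had groups that did not overlap, which held for 0.0595% of all genes.

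EPHA4, EPHB2, EPHB4 and EFNB2 had means below 3.66, the median of all values, so that their low readings are near the dim end of the array. EPHA2 averaged 3.70 over all tumors, just above that median, but 3.20 with a median of 2.96 in non-metastatic tumors. A dim reading cannot be told apart from absent RNA here. The differences of EPHB4 and EPHA2 are therefore differences of signal, and no fold in RNA is given for either. In bulk tumor samples fewer cells of a type and less RNA per cell cannot be told apart either. A further setting tested only probe sets whose mean exceeded the median of all probe set means, a cut different from 3.66. It left 2 of the 4 calls, EPHB1 (limma adjusted p = 0.000691) and EPHB3 (adjusted p = 0.00784). EPHB4 and EPHA2 fell below this cut and were not tested.

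The 4 differences had the same direction within each grade and among tumors of 2 to 5 cm. In grade II tumors (n = 6 and 5) EPHB1 differed by -1.18 on the log2 scale (adjusted p = 0.0488 from limma) and in grade III tumors (n = 7 and 9) by -1.69 (adjusted p = 0.0597). EPHB3 differed by -1.15 and -0.95, EPHB4 by 1.26 and 0.74, and EPHA2 by 0.63 and 1.41 in grades II and III, with no adjusted p under 0.05 in these smaller sets. With tumor size as a covariate EPHB1 kept its call (-1.54, adjusted p = 0.0188), whereas EPHB3 (-1.08, adjusted p = 0.0762), EPHB4 (0.69, adjusted p = 0.241) and EPHA2 (1.00, adjusted p = 0.198) did not. Among tumors of 2 to 5 cm the difference of EPHB1 was -1.69 (adjusted p = 0.0253), and it was the single call of the 10 genes.

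**Figure D2:**
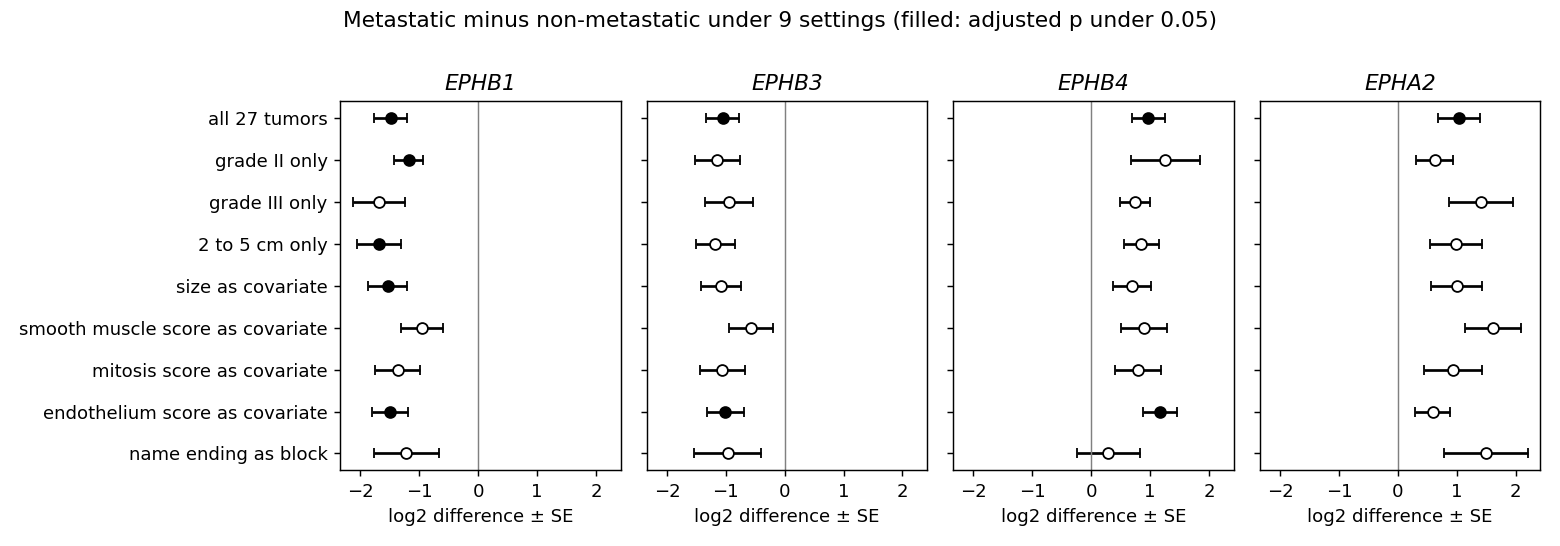
Log2 difference of metastatic minus non-metastatic tumors with its standard error for the 4 genes called, over all tumors, in subsets and with covariates; filled circles have an adjusted p under 0.05. Every difference keeps its sign, and adding the smooth muscle score moves EPHB1 from -1.49 to -0.95.

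Markers of smooth muscle and of dividing cells moved with lymph node status, and their values, with those of the other cell types, stand beside the 4 calls and the 17.8% of all genes called. Of 11 measured genes of smooth muscle and myoepithelium, the contractile layer around the mammary ducts, 6 were lower and 0 higher in metastatic tumors (median difference -0.68), and their mean signal ran from 6.49 to 9.00 in metastatic and from 7.09 to 9.97 in non-metastatic tumors. MYH11, a smooth muscle myosin, had the widest difference of the 11, -3.88. The 5 that did not pass included ACTA2 (-0.37, limma adjusted p = 0.434), TAGLN (-0.68, adjusted p = 0.149) and DES (-0.52, adjusted p = 0.0644). With this mean as a covariate no gene of the 10 was called, and the difference of EPHB1 was -0.95 (adjusted p = 0.103 from limma), that of EPHB3 -0.57 (adjusted p = 0.321), that of EPHB4 0.89 (adjusted p = 0.154) and that of EPHA2 1.62 (adjusted p = 0.0519).

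Of 16 mitosis genes 14 were higher and 0 lower (median difference 2.17), and their mean ran from 6.37 to 10.23 in metastatic and from 4.34 to 8.45 in non-metastatic tumors. With the mitosis mean as a covariate no gene of the 10 was called, with differences of -1.37 for EPHB1 (adjusted p = 0.0641), -1.06 for EPHB3 (adjusted p = 0.124), 0.79 for EPHB4 (adjusted p = 0.228) and 0.93 for EPHA2 (adjusted p = 0.264). Of 12 endothelial genes 2 were higher (FLT1 and PECAM1) and 1 lower (TEK), and their mean ran from 5.11 to 7.30 and from 5.15 to 6.17. With the endothelial mean as a covariate the difference of EPHA2 was 0.59 (adjusted p = 0.181), while EPHB1 (adjusted p = 0.00237), EPHB3 (-1.01, adjusted p = 0.0271) and EPHB4 (1.17, adjusted p = 0.00792) kept their calls. Of the other lists, 1 of 5 basal and 2 of 9 luminal genes were lower and 0 higher, and 0 of 8 fibroblast, 0 of 7 T cell, 0 of 6 macrophage and 0 of 6 adipocyte genes passed.

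The ending of the sample names largely divides the groups and the part of what it marks in these differences cannot be told apart from lymph node status. With the ending as a block, which leaves the comparison to metastatic tumors 1 and 2 against the non-metastatic tumors, no gene of the 10 was called and the difference of EPHB4 was 0.29 (adjusted p = 0.814 from limma), that of EPHB1 -1.22 (adjusted p = 0.503), that of EPHB3 -0.97 (adjusted p = 0.536) and that of EPHA2 1.499 (adjusted p = 0.505), a wider difference than the 1.04 without the block. Metastatic tumors 1 and 2 read 5.36 and 4.89 for EPHB1, against a non-metastatic mean of 6.34, and 2.94 and 3.25 for EPHB4, against 2.80. For EPHA2 they read 4.74 and 4.66, against a non-metastatic mean of 3.20 and a mean of 4.15 in the metastatic tumors whose names end in T. When each array's upper quartile was added to the model, EPHB1 alone was called (-1.29, adjusted p = 0.0364). The differences of EPHB3 (-1.06, adjusted p = 0.0960) and EPHB4 (0.95, adjusted p = 0.135) stayed close to their values without it, and EPHA2 differed by 0.63 (adjusted p = 0.466).

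Grade III and grade II tumors, compared with lymph node status in the model, showed no difference that passed the test in any of the 10 genes. By limma 0 of 15115 genes passed at an adjusted p under 0.05 (5.85% at an unadjusted p under 0.05, none of the 10 genes among them). The 95% intervals show what the comparison leaves possible. EPHA1 had the widest difference, with a median of 7.47 in grade III tumors (from 3.68 to 9.22, n = 16) and 8.34 in grade II tumors (from 6.87 to 8.99, n = 11). The ranges overlapped, and EPHA1 differed by -0.79 (95% interval from -1.69 to 0.11, adjusted p = 0.738). EPHA2 differed by 0.53 (from -0.21 to 1.26) and EPHB6 by 0.34 (from -0.61 to 1.30), and the differences of the other 7 genes lay between -0.13 and 0.23.

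EPHB6 showed the largest contrast between the lymph node groups in its relation to grade. In non-metastatic tumors it averaged 6.19 ± 1.38 (SD, n = 9) in grade III and 4.92 ± 0.39 (SD, n = 5) in grade II. In metastatic tumors it averaged 4.46 ± 0.76 (SD, n = 7) in grade III and 5.03 ± 1.38 (SD, n = 6) in grade II. The interaction was -1.85 (standard error 0.87) at an unadjusted p = 0.0432 and an adjusted p = 1.00 from limma, so that a difference between the groups was not established. By limma 0 of 15115 genes passed this interaction test after adjustment, and 2.66% at an unadjusted p under 0.05.

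For tumor size, taken as the slope per doubling with lymph node status in the model, none of the 10 genes passed the test. Again 0 of 15115 genes passed (7.75% at an unadjusted p under 0.05, none of the 10 genes among them). EPHB6 had the steepest rise, 0.31 per doubling (95% interval from -0.22 to 0.84), and EPHB4 the steepest fall, -0.25 (from -0.57 to 0.08), both with limma. Of the 20 correlations with size within either group, 0 passed after adjustment over the 20. EFNB2 in non-metastatic tumors had the highest Pearson correlation (r = 0.684, permutation p = 0.00673, adjusted p = 0.135; Spearman rho = 0.509, permutation p = 0.0658, adjusted p = 0.329; n = 14), and without the 2 tumors of most distant size r was 0.300, so the relation rests on those tumors. By Spearman the highest was EPHB6 in metastatic tumors (rho = 0.626, permutation p = 0.0238, adjusted p = 0.329; r = 0.516, permutation p = 0.0688, adjusted p = 0.539; n = 13), with r = 0.349 without the 2 tumors of most distant size. For none of the 10 genes did a difference in slope between the groups pass (limma adjusted p from 0.738 to 0.980 for the interaction). Of all genes, 0.00662% passed this test, and 8.44% at an unadjusted p under 0.05.

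**Figure D3:**
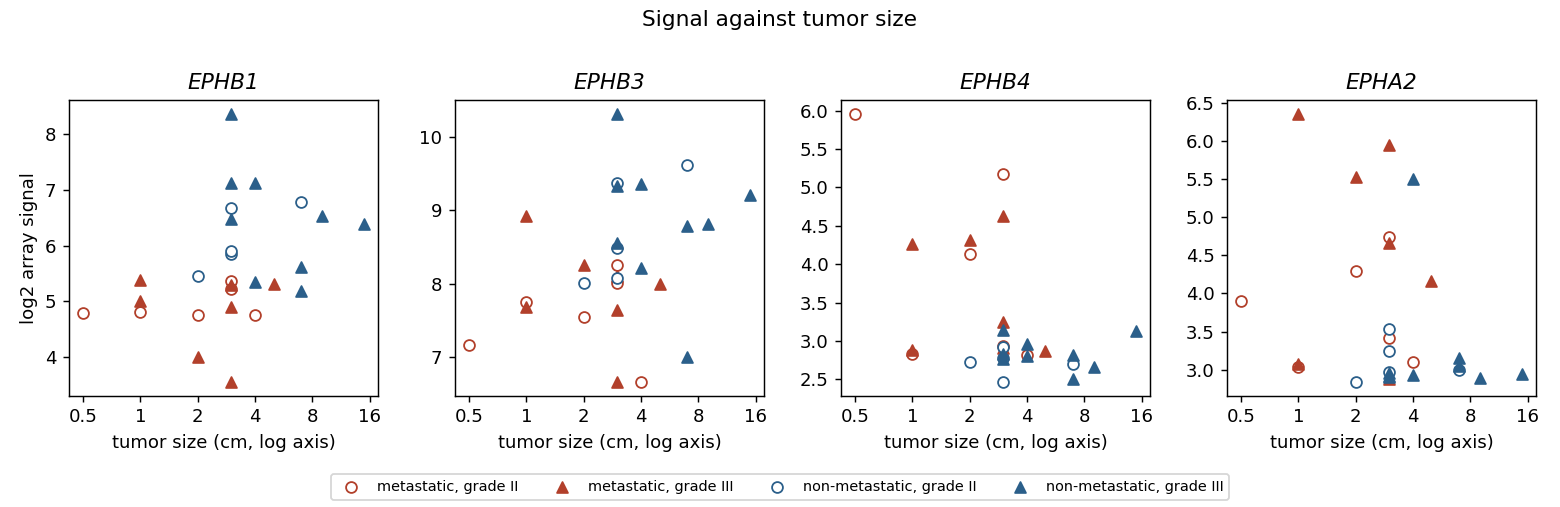
Log2 array signal against tumor size on a log axis for the 4 genes called by lymph node status, colored by group, with circles for grade II and triangles for grade III. The 13 metastatic tumors measure 0.5 to 5 cm and the 14 non-metastatic tumors 2 to 15 cm, and at 3 cm, where both groups are present, EPHB1 is lower in the metastatic tumors.

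Beyond the group difference, EPHB1 and EPHB3 varied together from tumor to tumor. Across the 27 tumors, taken as deviations from their group means, Pearson r was 0.673 (two-sided permutation p adjusted over the 45 pairs of the 10 genes = 0.0135) and Spearman rho 0.616 (adjusted p = 0.0558). Within the groups r was 0.562 in metastatic and 0.727 in non-metastatic tumors, and without the 2 tumors farthest from the median of EPHB1 it was 0.509. It was the single pair that passed, by Pearson only. With grade also removed r was 0.698 (adjusted p = 0.0153) and rho 0.559 (adjusted p = 0.136). EPHA2 and EFNB1 followed with r = 0.559 (adjusted p = 0.118), and passed when grade was also removed (r = 0.621, adjusted p = 0.0349; rho = 0.653, adjusted p = 0.0427; r = 0.530 without the 2 farthest tumors). EPHB6 correlated with EPHB2, EPHB1 and EPHB3 at r of 0.51, 0.46 and 0.44 without passing, whereas EPHB4 had r between -0.11 and 0.19 with the other 9 genes. Within the groups its r with EPHB1, EPHB2, EPHB3 and EPHB6 lay between -0.394 and -0.095 in metastatic tumors and between 0.338 and 0.549 in non-metastatic tumors, a contrast that was not tested. In non-metastatic tumors EPHB4 spanned only 2.46 to 3.15, so those r rest on small differences between dim readings. These partners were picked after their values were seen. EPHB4 and its ligand EFNB2 had r = 0.05. Because EFNB2 was dim in all tumors but metastatic tumor 7, this r cannot show whether the 2 genes vary together.

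**Figure D4:**
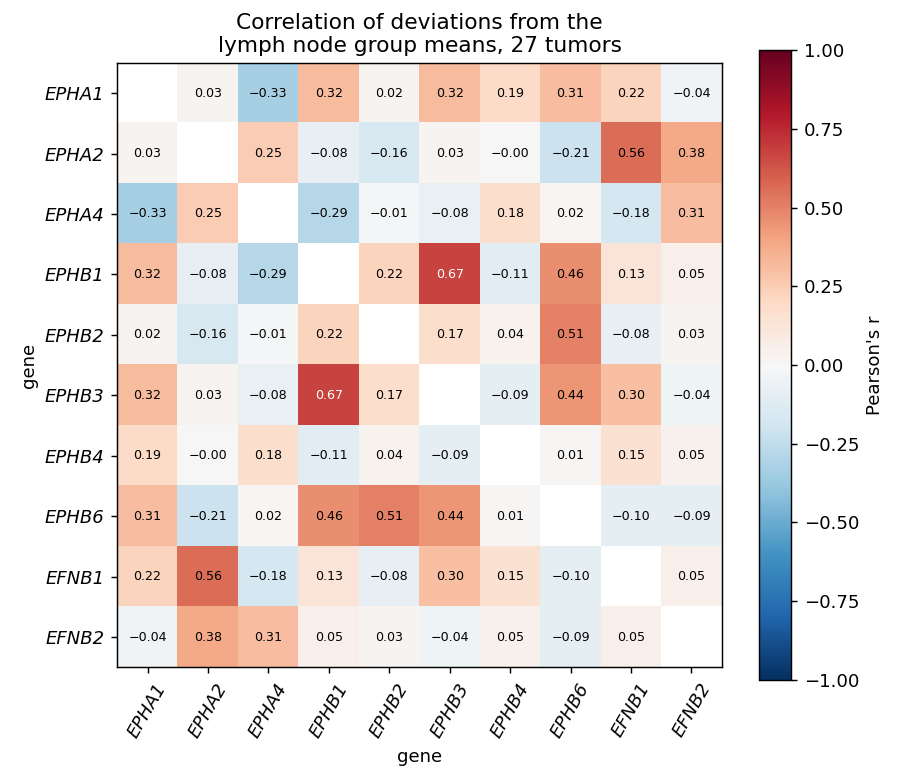
Pearson correlation of the 45 gene pairs over 27 tumors, computed on deviations from the lymph node group means, on a color scale from -1 to 1. EPHB1 and EPHB3 have the highest r (0.67), and EPHB4 has r between -0.11 and 0.19.

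**Figure D5:**
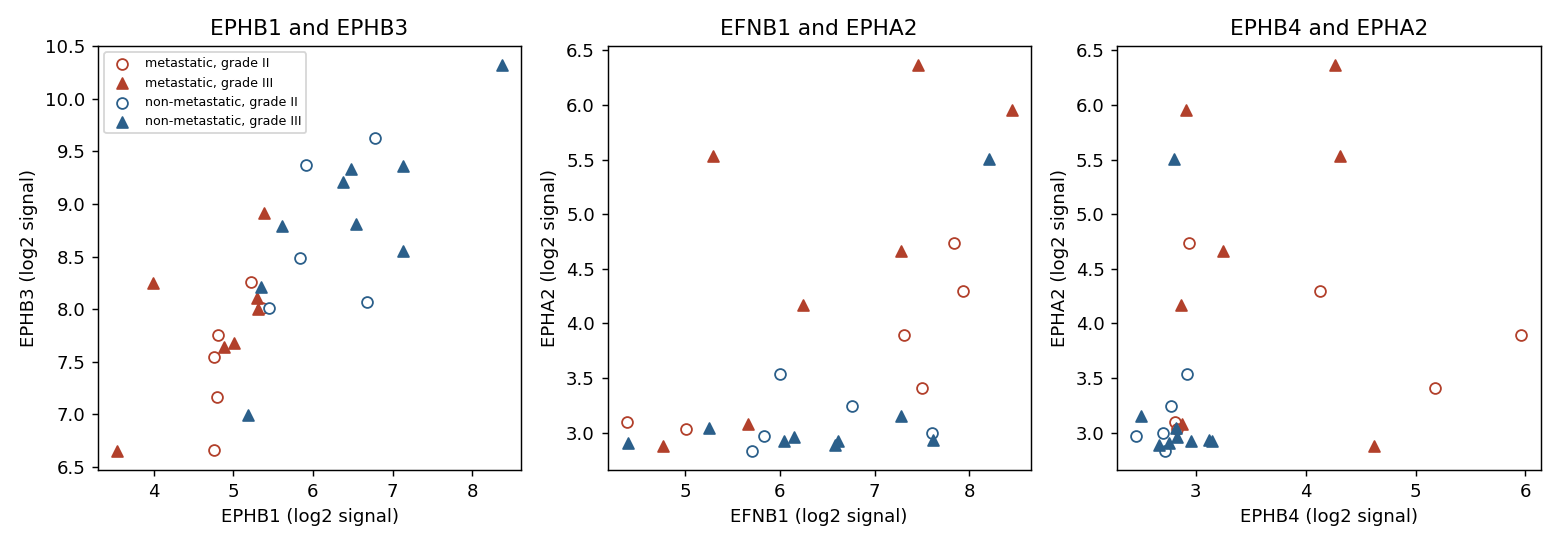
Log2 signal of 3 pairs of genes in the 27 tumors, metastatic in red and non-metastatic in blue, with circles for grade II and triangles for grade III. EPHB1 and EPHB3 rise together in both groups, EPHA2 is above 4 mainly where EFNB1 is high, and EPHB4 and EPHA2 are raised in partly different metastatic tumors.

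The same deviations gave the genes most like each receptor called. For EPHB1 these were PTPN14 (r = 0.704), PACS2 (r = 0.691) and EPHB3 (r = 0.673), and for EPHB3 CPNE2 (r = 0.719), TTC8 (r = 0.717) and GAL3ST4 (r = 0.699). EPHB4 was most like UBE2Z (r = 0.876), ITGA9 (r = 0.851) and RAB40C (r = 0.846), and EPHA2 was most like LMNA (r = 0.710), TEAD1 (r = 0.697) and CRKL (r = 0.696), all over 27 tumors. These are the highest of about 15115 values each and are given without a test. With the scores of smooth muscle, basal, luminal and endothelial cells and of mitosis, 0 of 50 relations passed after adjustment, the highest being EPHA2 with the endothelial score (r = 0.629, permutation p adjusted over the 50 = 0.0645). EPHB1 had r = 0.398 with the smooth muscle score.

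The 4 lists of further pathway genes were counted by lymph node status, where 17.8% of all genes passed. Of 10 other Eph receptors and ephrins measured, 0 were higher and 1 was lower. This was EFNA5, an A ephrin, which averaged 4.00 in metastatic tumors and 5.79 in the others (difference -1.79 with a standard error of 0.51, limma adjusted p = 0.0178, 11 of 13 metastatic tumors below the non-metastatic median). The list had a median difference of -0.07, against -0.0019 for all genes.

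Of 34 genes that carry the forward signal from Eph receptors, 3 were higher and 3 lower, with a median difference of 0.05. YES1, a Src family kinase, was higher by 1.54 (limma adjusted p = 0.00236, exceeding the non-metastatic median in 13 of 13), NCK1, an adaptor to the actin machinery, by 0.68 (adjusted p = 0.0192) and RAC1, a GTPase of the cytoskeleton, by 0.24 (adjusted p = 0.0438). PIK3R1, the regulatory subunit of PI3 kinase, differed by -1.52 (adjusted p = 0.000390), INPPL1, a lipid phosphatase that binds EPHA2, by -0.79 (adjusted p = 0.0419) and WASL, which promotes actin branching, by -0.58 (adjusted p = 0.0486).

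Of 11 genes of reverse signalling by B ephrins, 0 passed in either direction, and the median difference was 0.13. Of 11 genes listed for shedding, dephosphorylation and turnover, mostly proteases, phosphatases and ubiquitin ligases, 1 was higher and 1 lower. ACP1, a low molecular weight tyrosine phosphatase, was higher by 0.81 (adjusted p = 0.00531 from limma) and CBLB, a ubiquitin ligase, differed by -1.28 (adjusted p = 0.0394). The calls of the 4 lists, 1 of 10, 6 of 34, 0 of 11 and 2 of 11, stand beside the 17.8% of all genes that passed.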

How the data were processed

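Values of 27 carcinomas on Affymetrix Canine Genome 2.0 arrays were analysed. According to the study's methods and processing notes, the authors processed the arrays in Partek Genomic Suite 6.4 with its gcRMA workflow, in which background correction was that of RMA, arrays were quantile-normalized and probes were summarized by median polish. The deposited log2 values were taken without further normalization. Their scale was not wholly equal between arrays, with upper quartiles of 7.88 to 8.00 in metastatic and 7.52 to 7.92 in non-metastatic tumors. When they were quantile-normalized again, the same 4 genes were called, with differences of -1.64 for EPHB1 and -1.23 for EPHB3. Of 43035 probe sets, 175 controls were left out. Of the rest, 29254 carry 1 gene symbol in GEO's platform annotation, 439 several and 13167 none. Groups, grade, size and age come from the labels, and 0 columns were left unused. The dogs are the replicates, and precision is limited by how many were arrayed.

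Models were fitted over all probe sets with limma 3.58.1 in R 4.3.3 (empirical Bayes, two-sided), with lymph node status alone, or grade or log2 size beside it, and adjusted over 15115 genes by Benjamini-Hochberg. Correlations used 100000 permutations of tumors within groups. A cell type or mitosis score is the mean log2 signal of its list. The procedures were tested on simulated data. Plots used Python 3.11.15 and matplotlib 3.10.9.

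The genes and lists were chosen with earlier results of these data known. Named are all 10 genes, up to 3 genes per pathway list and direction of smallest adjusted p, and the 3 genes most correlated with each gene called. Composition markers named beside the lists were chosen after their values were seen. Alternatives changed the scaling, the test and its array weights, the filter on dim probe sets, the probe set used, the covariates (cell type and mitosis scores, size, grade, age, name ending) and the tumors included. No sequences were used here.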

Additional observations from a re-analysis of the deposited data

Results flagged for a closer look

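In 8 of 40 sets of tumors of one gene, lymph node group and grade, a single tumor stood far from the rest. About 1 in 20 would do so if sets were independent and normally distributed. That rate does not apply directly, since the sets share the same tumors and include the dim genes EPHA4, EPHB2 and EFNB2. EPHA1 read 3.68 in non-metastatic tumor 12, with the next lowest non-metastatic grade III tumor at 6.69. EPHA2 read 5.50 in non-metastatic tumor 4, against 3.15 or less in the other grade III tumors of its group. EPHA4 read 2.90 in metastatic tumor 1, next to 2.45 among metastatic grade II tumors, and 2.89 in non-metastatic tumor 14, next to 2.37 among non-metastatic grade III tumors. EPHB2 read 3.14 in non-metastatic tumor 13, next to 2.60 in grade II, and 3.86 in non-metastatic tumor 8, next to 2.98 in grade III. EPHB6 read 4.25 in non-metastatic tumor 6, below the other grade II tumors of its group, which began at 4.99. EFNB2 read 4.81 in metastatic tumor 7, next to 3.00 among metastatic grade III tumors.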

How the results depend on the processing

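Of the 4 genes called by lymph node status, 3 or 4 remained in number under 13 alternatives and when any single tumor was left out. Without non-metastatic tumors 3 and 5, or without metastatic tumor 2 and non-metastatic tumor 4 (both chosen after seeing the data, as was a variance moderated over 1 probe set per gene), 3 and 4 were called. The count was 2 for bright probe sets, 1 with the upper quartile, with log2 size, with size and age, in tumors of 2 to 5 cm, in grade II tumors and at the study's thresholds applied to limma, and 0 with the smooth muscle score, the mitosis score, the name ending as a block and in grade III tumors. The 4 called genes kept their direction throughout. The cause of the lost calls was not tested, and the subsets hold fewer tumors. No gene was called by grade or size under any alternative. With deviations from group and grade together, 2 pairs passed by Pearson in place of 1, of which EPHB1 and EPHB3 did not pass by Spearman (rho = 0.559, permutation test, adjusted p = 0.136). No paired analysis was possible because replicate numbers only name the tumors in order.

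Several differences that were not called changed sign. By lymph node status, EPHA1 (0.14) became -0.27 with the upper quartile, -0.14 with the name ending, -0.16 without non-metastatic tumor 12, -0.13 with size, -0.086 with size and age, -0.27 at 2 to 5 cm, -0.026 in grade III and -0.13 by its other probe set. EFNB1 (0.12) became -0.052 with array weights, -0.039 when quantile-normalized again, -0.10 with the upper quartile, -0.18 with the endothelium score, -0.47 with the mitosis score, -0.054 with age and -0.010 in grade III. EPHB2 became 0.035 with the upper quartile, EFNB2 -0.10 with the name ending and -0.045 by another probe set, and EPHB6 0.11 in grade II and 0.17 by another probe set. By grade, EFNB1 (-0.068) became 0.051 with array weights, 0.088 with age, 0.0027 without non-metastatic tumor 12, 0.12 with the study's grade and 0.078 in non-metastatic tumors. EPHB1 became -0.17 and EPHB6 -0.58 in metastatic tumors, EPHB4 0.13 in non-metastatic tumors, EPHB6 -0.086 by another probe set and EPHA1 0.11 by its other probe set. For the size slope, EPHB1 (-0.047) became 0.019 with array weights, 0.00069 when quantile-normalized again, 0.0013 in metastatic tumors, 0.36 without the lymph node term and 0.013 by another probe set. EPHB3 (-0.025) became 0.027 with array weights, 0.016 when quantile-normalized again, 0.040 without non-metastatic tumor 12, 0.0011 for size in cm, 0.028 in non-metastatic tumors and 0.26 without the lymph node term. EPHA2 became 0.041 with the upper quartile, and EPHA1 0.016 with the luminal score, 0.045 in metastatic tumors and 0.029 by its other probe set. EPHB2 became 0.0029 for size in cm and 0.049 without the lymph node term, and EFNB2 0.011 for size in cm, 0.11 in non-metastatic tumors and 0.016 by another probe set. EFNB1 became -0.066 in metastatic tumors, EPHB4 0.023 and EPHB6 -0.043 in non-metastatic tumors, and EPHA4 -0.041 without the lymph node term. With single tumors left out, the lymph node difference ranged from -0.16 to 0.30 for EPHA1, -0.042 to 0.30 for EFNB1 and -0.031 to 0.14 for EFNB2. The grade difference ranged from -0.043 to 0.19 for EPHB1, -0.23 to 0.073 for EPHB4 and -0.28 to 0.073 for EFNB1. The size slope ranged from -0.10 to 0.092 for EPHA2, -0.11 to 0.014 for EPHB1, -0.038 to 0.019 for EPHB2, -0.11 to 0.042 for EPHB3 and -0.082 to 0.058 for EFNB2.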
